A study of Saccharomyces cerevisiae with 16 samples.

Results

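Translational efficiency (TE) was measured gene by gene in the wild-type strain of the *eIF3a/b Degron* background, called Degron WT here. TE is the number of ribosome footprints on a coding sequence relative to the number of mRNA reads on the same sequence. The genes described are those with at least 128 mRNA reads summed over the 4 mRNA libraries of that background (WT and mutant), which kept 5306 of the 5647 genes in the count table and left out 341. Of the 16 libraries of the series, the 4 of Degron WT were used: a footprint library and an mRNA library from each of 2 cultures. The study asked how loss of translation initiation factor eIF3, or of its mRNA-entry-channel arm, changes TE in budding yeast, and this strain is the control for the first of those mutants.

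Degron WT is strain YAJ3 of *Saccharomyces cerevisiae*, a *MATa* haploid. By the labels and methods it has *trp1Δ*, *ura3-52* and a mutant *leu2* allele, with the kinase gene *GCN2* disrupted (*gcn2::hisG*), and it carried the empty plasmid pRS316 [*URA3*]. It also had the ubiquitin ligase gene *UBR1* under the galactose-inducible *GAL1* promoter (*PGAL1-myc-UBR1::TRP1::ubr1*), as the mutant does, so neither the disruption nor the induced ligase is a difference from the mutant. The cells were grown in raffinose medium with copper at 25 °C and moved for 90 min to warm medium with raffinose, galactose and the copper chelator BCS at 36 °C. These are thus cells of 1 strain under heat and galactose induction, treated with cycloheximide before harvest. The WT strain of the other background, called DDKK WT here, was used only for comparison. It is strain H450, also *MATa*, in which *tif34Δ* is covered by YCp-i/TIF34-HA. Like Degron WT it has *trp1Δ* and a mutant *leu2* (written *leu2-3,-112* in its labels), and unlike Degron WT it carries *GCN2*, as the allele *ura3-52::GCN2*. Those cells were grown in SC medium at 30 °C and shifted to 37 °C for 30 min.

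Ribosomes reach most yeast start codons by binding near the capped 5′ end of the mRNA and scanning to the first AUG in a favourable context. The rate of that initiation step largely sets how many ribosomes an mRNA carries, and footprint sequencing counts them. An mRNA with upstream open reading frames, a structured leader or a weak start context is usually read less often, whereas mRNAs for ribosomal proteins and glycolytic enzymes are among the best translated in growing yeast.

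The mRNA libraries held 9002332 and 10994187 reads in cultures 1 and 2, and the footprint libraries 20768634 and 18160621. The median gene had 692.5 and 836 mRNA reads and 859.5 and 759 footprints. The genes that mark the genotype, the galactose medium and the mating type behaved as labelled, whereas those for copper did not show the chelator. *UBR1* had 134416 and 141208 mRNA reads against 4580 and 3241 in DDKK WT, and *GAL1*, the galactokinase gene, had 97639 and 115452 against 136 and 90. The disrupted *GCN2* gave 25 and 34 mRNA reads and fell below the minimum. *STE2*, the receptor gene expressed in *MATa* cells, had 5610 and 6299 mRNA reads, against 206 and 261 for *STE3*, the receptor gene of the other mating type. *MF(ALPHA)1*, a pheromone gene of the other mating type, had 38 and 26. *CTR1*, a copper transporter gene chosen to mark copper chelation, had 301 and 371 mRNA reads, fewer than the median gene. *CUP1-1*, chosen for the same check, was not in the count table.

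TE was expressed as the log2 of footprints over mRNA reads relative to the median gene, whose ratio was 1.35 in culture 1 and 0.975 in culture 2 before this scaling. It varied widely. The standard deviation over genes was 1.52 on the log2 scale, and the genes at the 10th and 90th percentiles, at −1.70 and 1.60, differed 9.85-fold. The cultures gave nearly the same order of genes. Across genes, which share libraries and are no replicates of one another, Pearson's r between the cultures was 0.985 and Spearman's rho 0.990. The difference in log2 TE between cultures had a standard deviation of 0.264, and of 0.162 over the 4884 genes with at least 100 reads in all 4 libraries.

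A gene was called high or low when edgeR's quasi-likelihood test gave an adjusted p under 0.05 and its TE lay at least 2-fold from the median gene. By this rule 1207 genes (22.7% of those tested) were high and 1147 (21.6%) were low. Without the fold limit, 2383 genes (44.9%) lay above and 2369 (44.6%) below the median gene, so the fold decided most calls. At the limits, *YAR1* (log2 TE 1.0004) was just inside the high group and *NOP13* (0.999) just outside it, while *RAD2* (−1.0025) was just inside the low group and *SCT1* (−0.9997) just outside. The split depends on the reference: scaled by library size alone, the median gene lay at a log2 TE of −0.77, and 383 genes were high and 2283 low.

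**Figure D1:**
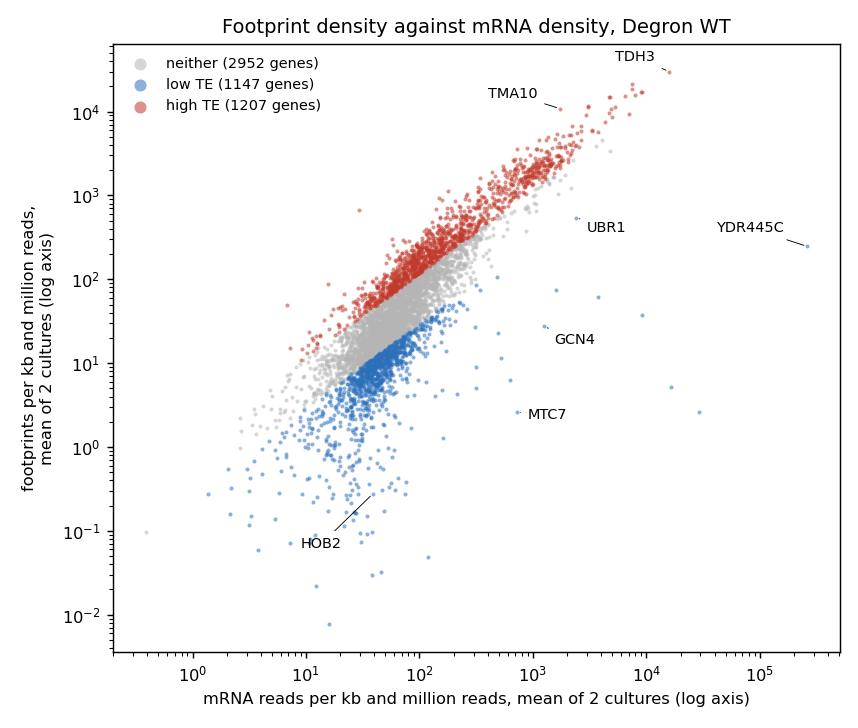
Footprint density against mRNA density of the 5306 tested genes of Degron WT, each as RPKM (reads per kb of counted coding sequence, scaled to the library's total reads), mean of 2 cultures, on log axes. Red points are the 1207 genes called high, blue the 1147 called low and grey the rest, and the 11 genes without a footprint in either library are not drawn. The high genes lie along the upper edge and become most of the genes at the right, and a scatter of low genes such as *GCN4*, *MTC7* and YDR445C falls far below it.

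Footprints were more unequal between genes than mRNA. On the log2 scale the densities (reads per kb scaled to library size, or RPKM) had a standard deviation of 2.54 for footprints and 1.52 for mRNA. A regression of log2 footprint density in culture 2 on log2 mRNA density in culture 1 had a slope of 1.41 and explained 70.9% of the variance, and the reverse pairing of cultures gave 1.40 and 71.0%. Thus, footprints rose more steeply than mRNA. The 1207 high genes held 36.1% and 37.5% of the mRNA reads in cultures 1 and 2 but 71.4% and 71.1% of the footprints. The 1147 low genes held 25.5% and 24.2% of the mRNA reads and 2.85% and 2.88% of the footprints. One sequence, YDR445C, weighs on the low group, since without it the low genes held 17.7% and 16.9% of the mRNA reads. The 110 genes with the most footprints in culture 1, and 113 in culture 2, accounted for 50% of all footprints, against 284 and 276 genes for 50% of the mRNA reads.

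The genes with the highest TE were short. The genes named had an annotation, no overlap, little shared sequence and at least 100 mRNA reads and 10 footprints per library. Of these, the 10 highest encode proteins of 60 to 199 residues, with log2 TE from 2.81 to 3.42. They include proteins of the respiratory chain, regulators of the mitochondrial ATPase and genes that respond to stress. The 10 lowest span 88 to 2489 residues, with log2 TE from −7.32 to −5.20. Genes of lower TE with fewer than 10 footprints in a library were left out by this rule. The adjusted p of these 20 genes was at most 5.07e-119, and both cultures lay on the same side for each of them.

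The sequences around the start codons of the 5 highest and 5 lowest of these genes are shown because the base at position −3 is the part of the yeast start context with the strongest known preference, for A. Each runs from 12 bases before the start codon to 9 bases from its first base onward, in the sense direction, from the RefSeq R64 genome (the build called sacCer3 in the labels), with the base at −3 and the ATG in capitals. The highest were YNL208W (chrXIV:254406-254426, plus strand), *TMA10* (chrXII:783379-783399, minus), *CYC7* (chrV:79969-79989, minus), *CPP1* (chrII:270235-270255, plus) and *DDR2* (chrXV:231747-231767, minus).
YNL208W: caagtgtccAaaATGtctgca
TMA10: cacaattcaAacATGaccaga
CYC7: cataaacaaAacATGgctaaa
CPP1: cacacaaccAccATGtctgct
DDR2: atcgatttaAacATGaaagta
The lowest were *MTC7* (chrV:86167-86187, plus), *DAN4* (chrX:715732-715752, minus), *HOB2* (chrXVI:760013-760033, plus), *VRL1* (chrXIII:264529-264549, plus) and YCR024C-B (chrIII:162857-162877, minus).
MTC7: catgggataTaaATGaaaaaa
DAN4: ccgaagaaaGcaATGgttaat
HOB2: aaaaaatctAcaATGtctatg
VRL1: ggtactaccGaaATGgattca
YCR024C-B: aattagactActATGtgtgtg
All 5 of the highest have A at −3, as do *HOB2* and YCR024C-B among the lowest, while *MTC7* has T and *DAN4* and *VRL1* have G.

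YNL208W, an uncharacterized protein, had 705 and 915 mRNA reads in cultures 1 and 2 and 11216 and 8631 footprints, a log2 TE of 3.42 ± 0.07 (SE from the fit of both cultures). *TMA10*, which encodes a small ribosome-associated protein, was far more abundant, with 3311 and 3648 mRNA reads and 46069 and 38753 footprints, and had nearly the same TE (3.40 ± 0.08). In culture 1 they had 15.9 and 13.9 footprints per mRNA read, and in culture 2 9.43 and 10.6. *CYC7*, the second cytochrome c, had 139 and 185 mRNA reads and 1913 and 1419 footprints (3.16 ± 0.09). *INH1*, the inhibitor of the mitochondrial ATPase, had 780 and 952 mRNA reads and 8115 and 6729 footprints (2.90 ± 0.07). *COX7*, a subunit of cytochrome c oxidase, had 1001 and 1160 mRNA reads and 9432 and 8129 footprints (2.82 ± 0.07). These mitochondrial proteins are each imported after synthesis in the cytosol.

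The other 5 of the highest genes had log2 TE from 2.81 to 3.06. *DDR2*, a small gene induced by heat and DNA damage, had 857 and 980 mRNA reads and 10258 and 7277 footprints (3.05 ± 0.07). *GRX1*, a glutaredoxin, had 799 and 1093 mRNA reads and 8724 and 8191 footprints (2.97 ± 0.07). *CPP1*, annotated as a cysteine-rich palmitoylated protein, had 419 and 502 mRNA reads and 4767 and 4041 footprints (3.06 ± 0.07). The ribosome-associated *TMA7* (2.81 ± 0.08) and *STF2*, annotated as an ATPase-stabilizing factor (2.81 ± 0.07), closed the group. The cultures differed most for *TMA7*, at 3.08 and 2.58. In each of the 10 genes the footprints exceeded the mRNA reads at least 5.83-fold in both cultures, far above the ratio of the median gene.

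**Figure D2:**
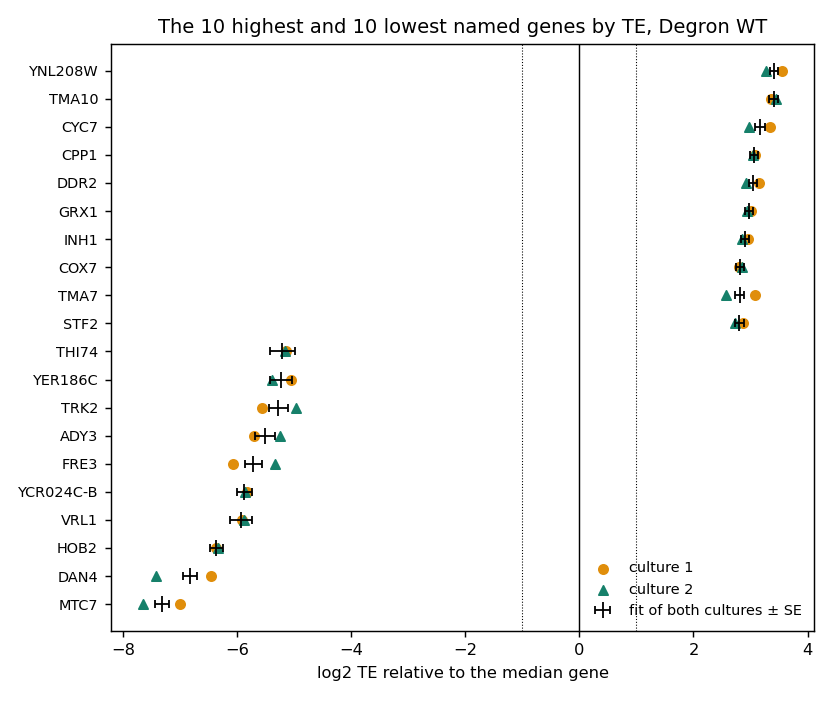
Log2 TE relative to the median gene for the 10 highest and the 10 lowest genes that met the naming rule in Degron WT, with culture 1 as circles, culture 2 as triangles, and the fit of both cultures with its standard error in black. Dotted lines mark the 2-fold limits, which all 20 genes lie well outside. The high genes lie between 2.81 and 3.42 and the low genes between −7.32 and −5.20, so that the low tail reaches further from the median gene.

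At the other end, *MTC7* (chrV:86179-86598), a gene linked to telomere capping, had 2220 and 2989 mRNA reads but 23 and 14 footprints, a log2 TE of −7.32 ± 0.12. It starts 29 nt beyond the end of *HYP2* on the same strand, whose mRNA density was 4.59 times as high. YCR024C-B (chrIII:162599-162865), an uncharacterized short gene, had 1118 and 1519 mRNA reads and 26 and 25 footprints (−5.88 ± 0.13), and lies 79 nt beyond *PMP1* on the same strand, with 1.96 times its mRNA density. Whether reads from a neighbour's transcript were counted for these genes was not tested.

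The other low genes lacked so close a neighbour, the shortest gap being 185 nt. *DAN4* (chrX:712255-715740), which encodes a cell wall mannoprotein, had 1992 and 2188 mRNA reads and 30 and 12 footprints (−6.83 ± 0.12), and its log2 TE was −7.53 without the footprint library of culture 1 and −6.41 without that of culture 2. *HOB2* (chrXVI:760025-767494), with 2489 codons the longest of them, had 2659 and 3092 mRNA reads and 43 and 37 footprints (−6.36 ± 0.11). *VRL1* had 601 and 630 mRNA reads and 13 and 10 footprints (−5.93 ± 0.19). In these genes the ribosome footprints were near the lower end of what the libraries could count, whereas their mRNA was plainly present.

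The other 5 of the lowest genes had 11 to 25 footprints per library. *FRE3*, a ferric-chelate reductase (chrXV:1055545-1057680), had 926 and 1056 mRNA reads and 18 and 25 footprints (−5.72 ± 0.15). *ADY3*, which acts in spore formation (chrIV:26403-28775), had 600 and 684 mRNA reads and 15 and 17 footprints (−5.51 ± 0.18). *TRK2*, a potassium transporter (chrXI:527815-530484), had 615 and 784 mRNA reads and 17 and 24 footprints (−5.28 ± 0.17). YER186C, which is uncharacterized, lay at −5.22 ± 0.19 and *THI74* at −5.20 ± 0.22.

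Some extreme values fell outside the naming rule and were looked up after the values were seen. The highest TE of all genes was that of *ANB1*, the form of translation factor eIF5A that aerobic cells make little of, with 83 and 166 mRNA reads and 5623 and 5179 footprints (log2 TE 5.25 ± 0.09). *ANB1* shares 8.73% of its 28-nt windows with another gene, and *HYP2*, which encodes the main form of eIF5A, had 52432 and 43686 footprints. The hexose transporter gene *HXT1* followed, with 88 and 142 mRNA reads and 1749 and 1456 footprints (3.60 ± 0.10) and 10.6% of its windows shared. At the bottom, 11 genes had no footprint in either library, with 78 to 227 mRNA reads over both mRNA libraries. A count of 0 allows up to 3 footprints per gene and library, for counting error alone. Of these 11 genes, 5 are in the RefSeq annotation. The 42 tested genes that this annotation does not list had a median log2 TE of −2.29, with 25 low and 6 high.

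Some of the sequences with the densest mRNA reads had few footprints for their mRNA. YDR445C, which the annotation does not list, had 854483 and 966092 mRNA reads, the highest mRNA density of all, and 1179 and 2080 footprints (log2 TE −9.30 ± 0.16). YGL088W, which overlaps the snoRNA gene *SNR10* over 216 nt, had 24962 and 31607 mRNA reads and 213 and 233 footprints (−7.18 ± 0.10). YMR013W-A and YPR108W-A, neither of which is listed, had log2 TE of −12.59 and −10.85. The density of YMR013W-A, 29056.5 RPKM, came from only 5401 and 6821 mRNA reads, so its counted region is very short, and it had 0 and 2 footprints. Among coding genes, the densest mRNAs came from *TDH3*, *TEF2*, *TEF1*, *TDH2*, *ENO2* and *PGK1*, and all 6 were called high.

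*TDH3*, the main glyceraldehyde-3-phosphate dehydrogenase gene, had the highest footprint density, with 129217 and 171340 mRNA reads and 581345 and 512764 footprints (log2 TE 1.67 ± 0.11). *ENO2*, an enolase gene, followed with 565662 and 480292 footprints (2.27 ± 0.11). *PGK1*, phosphoglycerate kinase, had 478496 and 390136 footprints (2.08 ± 0.10), with no sequence shared with another gene. *SSA1*, an Hsp70 chaperone gene, had 601606 and 521894 (2.02 ± 0.11). Pairs of near-identical genes such as *TEF1* and *TEF2*, which encode elongation factor eEF1A and share 95.9% of their 28-nt windows, cannot be told apart by these counts, and neither can *RPL41A* and *RPL41B*, whose footprint counts were the same at 5439 and 4919. The 10 genes with the most footprints held 21.6% and 21.3% of all footprints.

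Genes known for translational control had values of several kinds. *GCN4* (chrV:138918-139763), the activator of amino acid biosynthesis whose leader has inhibitory upstream open reading frames, had 8738 and 10938 mRNA reads and 482 and 364 footprints. Its log2 TE was −4.74 ± 0.08, which is 26.6-fold below the median gene, in a strain that lacks the kinase Gcn2 that relieves this inhibition. *CLN3*, a G1 cyclin gene with an upstream open reading frame, had 2138 and 2399 mRNA reads and 589 and 466 footprints (−2.31 ± 0.07) and was called low. *HAC1*, whose unspliced mRNA is held back from translation, lay at −0.43 ± 0.06. *CPA1*, which has an upstream open reading frame that responds to arginine, lay at 0.15 ± 0.06 and *YAP1* at 0.26 ± 0.06, both within 2-fold of the median gene. *CAD1* lay at 0.53 ± 0.07. The poly(A)-binding protein gene *PAB1* was just called high (1.01 ± 0.07), as was actin, *ACT1* (1.33 ± 0.08). The eIF3 genes *TIF32* (eIF3a) and *PRT1* (eIF3b), which are intact here, had log2 TE of 0.03 ± 0.06 and 0.47 ± 0.07, and for *TIF32* the test found no difference from the median gene (edgeR adjusted p = 0.672). *UBR1*, transcribed from the *GAL1* promoter, had 68960 and 54287 footprints and a TE below the median gene in both cultures (−1.37 ± 0.09). *GAL1* itself had 307756 and 256447 footprints and a TE above it (1.20 ± 0.10), but overlaps another annotated gene along its whole coding sequence. Relative to the median of genes of like length, the long *UBR1* lay at 0.19 and *GAL1* at 1.35.

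To relate TE to mRNA level without shared counting error, the mRNA density of one culture was set against the TE of the other. The Spearman correlation across the 5306 genes was 0.511 for the mRNA level of culture 1 and 0.506 for that of culture 2. Pearson correlations were 0.417 and 0.414. Genes share libraries and depth, so these are descriptions. With the genes in 10 equal groups by mRNA level in culture 1, the median log2 TE of culture 2 was −0.70 in the lowest group, −0.28 in the fifth and 1.46 in the highest. High genes made up 7.34% of the lowest group and 73.8% of the highest, and low genes 40.5% and 3.58%. The rise was steepest among the more abundant mRNAs, since the lowest 2 groups had almost the same median (−0.70 and −0.68). The median mRNA density was 132 RPKM for the high genes and 40.9 for the low genes, against 58.9 for all genes.

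Length showed a relation in the opposite direction. The Spearman correlation of TE with the deposited length of the counted coding region was −0.591 (Pearson with log2 length −0.412), and it was −0.589 in each culture alone. In 10 groups by length, the median log2 TE was 1.45 in the shortest, 0.20 in the fifth and −1.25 in the longest. The group of shortest genes (up to 426 nt) held 367 high genes and 66 low, whereas the group of longest genes (2784 nt and over) held 1 high gene and 321 low. That 1 gene is *FLO11*. The median length was 609 nt for the high genes, 1980 nt for the low genes and 1210.5 nt for all. Both counts of a gene come from the same stretch of sequence, so a constant factor of length cancels in the ratio. An uneven placement of footprints along the gene, such as an excess near the start codon, would not cancel, and this was not tested. The shortest counted region was 18 nt.

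**Figure D3:**
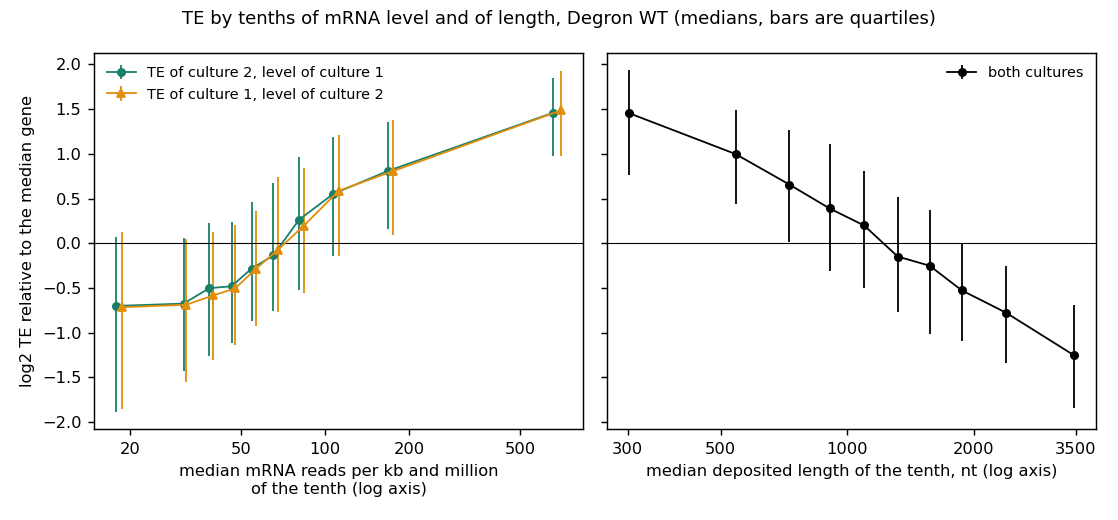
Median log2 TE of Degron WT genes in 10 groups by mRNA level (left, log axis) and in 10 groups by the deposited length (right, log axis), with bars from the lower to the upper quartile of genes. On the left the mRNA level comes from one culture and TE from the other, with the points of one pairing shifted slightly to the right so that both can be seen, and both rise from about −0.7 to about 1.5. On the right the median falls from 1.45 in the shortest group to −1.25 in the longest.

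Each relation was also seen among genes alike in the other measure. Shorter genes had more mRNA (Spearman correlation of mRNA level with length −0.248), but within the genes of low, middle and high mRNA level the correlation of TE with length was −0.447, −0.594 and −0.604. Within the short, middle and long genes (3 groups of like size) the correlation with the mRNA level of culture 1 was 0.529, 0.515 and 0.346. In a linear model over the 5008 annotated genes without overlap or shared sequence, log2 length alone accounted for 25.7% of the variance of log2 TE and log2 mRNA level for 21.1%, and both together for 36.9%. GC content of the coding sequence, with a Spearman correlation of 0.449 with TE, accounted for 15.5% alone. An index of codon use built on ribosomal protein genes correlated with mRNA level (0.516, ribosomal protein genes left out) more than with TE (0.224). With all 4 measures the model reached 42.2%, and leaving out length lost 11.7 percentage points, GC content 5.26, mRNA level 4.80 and codon use 0.011.

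Some genes went against the length relation, and they were chosen after the values were seen. *FLO11*, a large cell surface flocculin gene with 4104 nt of coding sequence, had 24481 and 34458 mRNA reads and 99104 and 91829 footprints, a log2 TE of 1.51 ± 0.08. Next in the group of longest genes came *AIM3* (0.98 ± 0.07), *BBC1* (0.87 ± 0.06), *FUN12*, which encodes initiation factor eIF5B (0.84 ± 0.07), and *PFK2*, the beta subunit of phosphofructokinase (0.82 ± 0.07), none of which reached the 2-fold limit. Short genes with low TE were *MTC7* and YCR024C-B, described with the lowest genes, then YCL021W-A (−2.96 ± 0.23), *MLO1* (−2.21 ± 0.22) and *TEN1*, a telomere-capping gene (−1.72 ± 0.20). *TEN1* had 141 and 179 mRNA reads and 60 and 51 footprints.

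The start context differed between high and low genes in the same sense as in the sequences printed with the highest and lowest genes. Among 5008 genes, A stood at −3 in 60.9%, in 70.5% of the 1073 high genes and in 49.5% of the 1072 low genes. The median log2 TE was 0.15 for genes with A at −3, −0.10 with G, −0.38 with T and −0.48 with C. Genes with A had the highest median in each of 3 length groups, at 1.04, 0.15 and −0.69 for short, middle and long genes, against 0.78, −0.38 and −1.17 for those with C. At −1 the difference was smaller, with A in 49.4% of the high and 41.5% of the low genes, and T in 16.2% and 25.1%. Length thus separated the medians by more than the base at −3 did.

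Gene groups were compared by counts of high and low members and by the median log2 TE, to be read against 22.7% high and 21.6% low among all genes. The 38 lists hold 1199 tested genes, and 24 had a median above that of all genes and 14 below it. Because TE went with length, each median is also given after the median of genes of like length was taken away (called length-adjusted here, and given in brackets where not named so), and 33 of the 38 kept their sign.

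The proteins of the ribosome were translated well and evenly. Of the 80 large-subunit genes 78 were high and none low, with a median log2 TE of 1.62 (length-adjusted 0.98), and of the 57 small-subunit genes 52 were high and none low, with a median of 1.51 (0.79). Their standard deviations, 0.39 and 0.41, were far below the 1.52 of all genes. *RPL15B* (2.57) and *RPS29B* (2.74) were highest. *RPL22B* (−0.42), the minor paralogue of a large-subunit gene, and *ASC1* (0.43), the homologue of RACK1, were lowest. Large-subunit genes held 4.17% and 4.37% of the mRNA reads and 7.18% and 7.55% of the footprints. Many are duplicated pairs whose reads cannot be assigned to one copy, and only 29 of the 80 and 30 of the 57 passed the limit on shared sequence, with medians of 1.51 and 1.51. Nuclear genes for the mitochondrial ribosome, with a median mRNA density of 114 RPKM against 1237 and 1211 for the large and small cytosolic subunits, were nearly as high: 56 of 74 were high and none low, with a median of 1.42 (0.58), from *MRPL19* (2.69) to *RSM22* (−0.10).

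Other parts of the translation machinery spread more. Of 11 elongation factor genes 7 were high and none low, with a median of 1.51 (1.53). They ran from *ANB1* (5.25) to *HEF3* (−0.73), with a standard deviation of 1.46. The 7 genes without overlap or shared sequence above the limit also had a median of 1.51. *EFB1*, a subunit of the exchange factor eEF1B, lay at 1.85 and *YEF3*, the fungal factor eEF3, at 0.35. Of 28 initiation factor genes 9 were high and 1 low, with a median of 0.76 (0.67). The highest were *HCR1*, an eIF3-associated factor (1.94), *TIF3*, which encodes eIF4B (1.92), and *SUI1*, which encodes eIF1 (1.40). The lowest was *GCD6*, a subunit of the exchange factor eIF2B (−1.11). Another eIF3 gene, *NIP1*, lay at −0.90. The cytosolic tRNA synthetases had a median of 0.41 with 4 of 21 high and none low, and a length-adjusted median of 0.99.

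Assembly of the ribosome was a contrast to the ribosome itself. Of 44 genes for the small subunit processome, which cuts and folds the pre-rRNA of the 40S subunit, 2 were high and 11 low, with a median of −0.74 (length-adjusted −0.28). Nop1, the methylating enzyme of C/D snoRNPs, had the highest value there (*NOP1*, 1.15) and the large scaffold gene *UTP10* the lowest (−2.44). The 53 genes for 60S assembly had 3 high and 5 low, with a median of −0.12 that turned to 0.09 after length adjustment. *REA1*, a very large ATPase gene, was lowest (−2.83).

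Genes of energy metabolism had high TE. The 34 nuclear genes of the respiratory chain and ATP synthase had the highest median of the 38 lists (1.92, length-adjusted 0.77), with 32 high and none low. They include *CYC7*, *INH1* and *COX7* of the 10 highest genes, then *COX9* (2.64), *QCR10* (2.64) and *CYC1*, the main cytochrome c (2.63). The exceptions were *ATP2* (0.78) and *COX5B* (0.39), an isoform of low oxygen. The list of glycolysis and fermentation had 16 of 20 genes high, none low, and a median of 1.73 (1.62), which was 1.42 over the 13 genes without shared sequence. *ENO1* (2.67) and *ENO2* (2.27) led, and both phosphofructokinase genes, *PFK1* (0.61) and *PFK2* (0.82), were below the fold limit. These 20 genes held 7.92% and 8.44% of the mRNA reads and 17.4% and 17.1% of the footprints. Among 18 genes of the citric acid cycle 13 were high and none low, with a median of 1.31 (1.33). *MDH1*, mitochondrial malate dehydrogenase, was highest (2.26).

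The galactose genes, induced here, were abundant without a high TE as a group. Of 8 genes 2 were high and 1 low, with a median of 0.56 (0.83), which was 0.87 over the 5 genes without overlap or shared sequence. *GAL1* and *GAL4* overlap another annotated gene along their whole coding sequence and *GAL10* over 1548 nt, so their counts may include other reads. *GAL7*, the transferase, had 39140 and 44735 mRNA reads and 100284 and 85214 footprints (0.94 ± 0.08), and *GAL10*, the epimerase, had 89263 and 105205 mRNA reads and 143846 and 123837 footprints (0.26 ± 0.09). The activator gene *GAL4*, with 716 and 825 mRNA reads and 303 and 302 footprints, was low (−1.54 ± 0.10). *PGM2*, phosphoglucomutase, was highest (1.33). The 9 hexose transporter and glucose sensor genes had a median of 0.43 (0.81) with 2 high and 3 low, and this sign rested on genes with shared sequence, since the 5 without it had a median of −1.40.

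Chaperones and defence genes were high as well. Of 26 cytosolic heat shock chaperone genes 20 were high and none low, with a median of 1.68 (length-adjusted 1.55), and they held 4.41% and 4.78% of the mRNA reads and 9.40% and 9.55% of the footprints. The small stress protein gene *HSP12* (2.77), the Hsp40 gene *SIS1* (2.54) and the small heat shock protein gene *HSP26* (2.45) led. *HSP104*, the disaggregase, had 18092 and 24178 mRNA reads and 81781 and 74322 footprints (1.70 ± 0.08). The other 6 had no call, and *SSA3*, one of the 4 *SSA* genes, was lowest (−0.51). *SSA1* lay at 2.02, with 64.7% of its windows shared, *SSA2* at 1.89 and *SSA4* at 1.97. In DDKK WT *SSA3* lay at 1.12, a difference of −1.64 ± 0.24. The chaperonin CCT differed from them, with none of 8 genes high or low and a median of 0.35 (0.53). Among 26 superoxide and peroxide defence genes 18 were high and 1 low, with a median of 1.44 (0.66). *GRX1* led, followed by *SOD1*, superoxide dismutase (2.56), and thioredoxin *TRX2* (2.41), and *GSH1*, the first enzyme of glutathione synthesis, was low (−1.50). Proteasome genes had 18 of 35 high and none low, with a median of 1.04 (0.64). The receptor subunit *RPN13* was highest, followed by the small lid subunit *SEM1* (2.05).

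**Figure D4:**
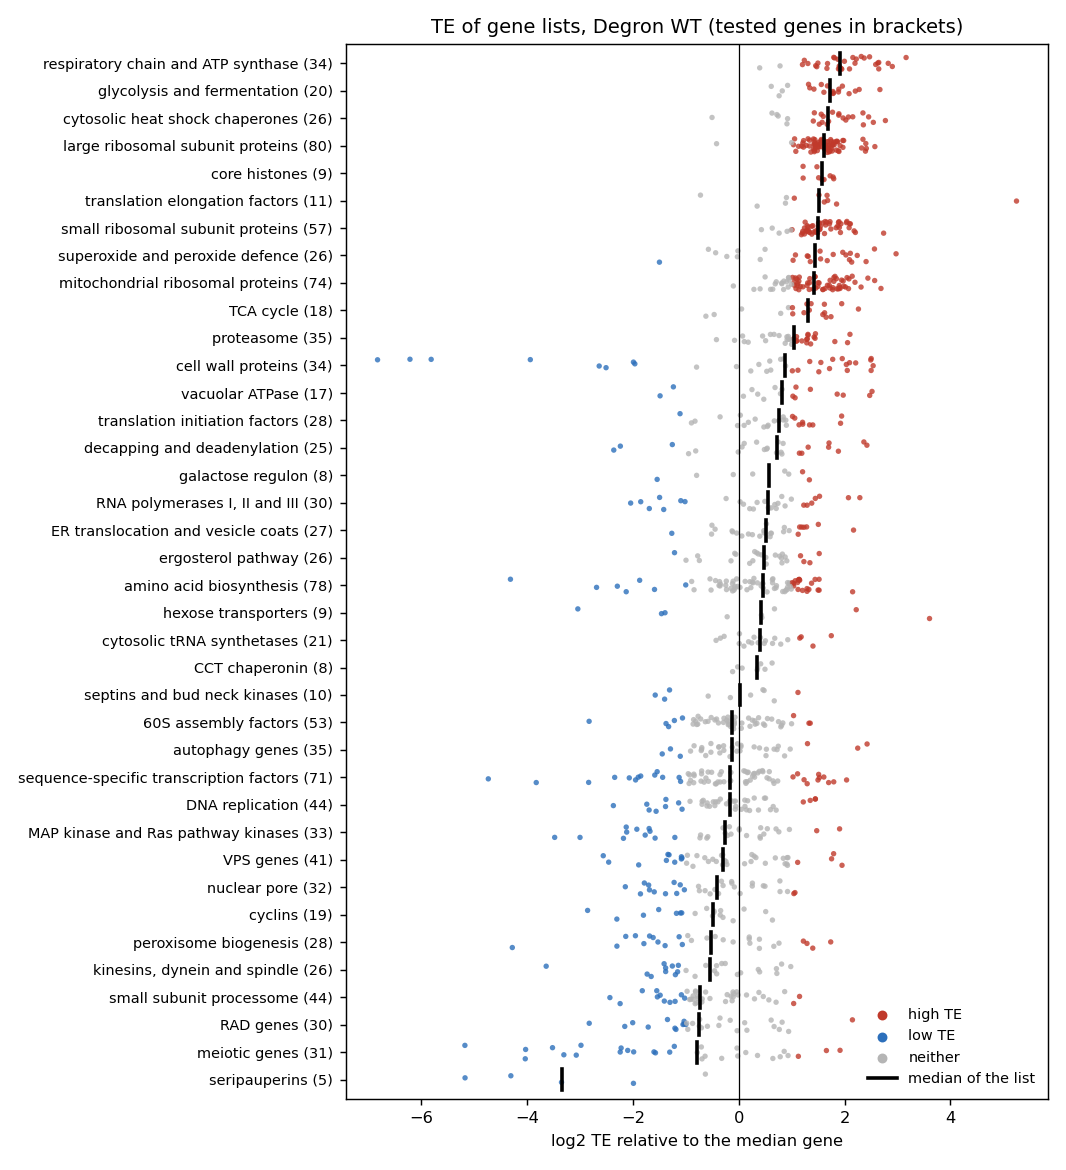
Log2 TE relative to the median gene for the members of 38 gene lists in Degron WT, ordered by the median of the list (black bar), with the number of tested genes in brackets. Red points are members called high, blue low and grey neither. Respiratory chain, glycolysis, chaperone, ribosomal protein, core histone and elongation factor lists lie at the top with medians from 1.51 to 1.92 and no low member, and meiotic genes and seripauperins lie at the bottom.

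All 9 genes of the core histone list were high, between 1.21 (*HHF2*) and 1.79 (*HTZ1*), with a median of 1.57. *HTZ1* encodes a variant of histone H2A. Of the 9 genes, 6 share sequence with a copy or overlap a gene. Histone genes are short, and after length adjustment the median was 0.19. Other lists of genes of the nucleus had medians near or below the median gene, except that of the RNA polymerases. Of 44 DNA replication genes 4 were high and 8 low (median −0.17, length-adjusted 0.06). The single-stranded DNA-binding subunit *RFA3* was highest (1.45) and the initiation factor *SLD3* lowest (−2.37). Among 30 *RAD* repair genes 1 was high, *RAD23* (2.15), and 11 were low (median −0.74, −0.19), with *RAD34* lowest (−2.83). The 32 nucleoporin genes had 2 high and 11 low, and their median of −0.42 turned to 0.15 after length adjustment. Of 30 RNA polymerase genes 7 were high and 7 low, shares close to those of all genes, with a median of 0.56 (−0.10). The small subunits *RPB11* (2.29) and *RPB10* (2.07) were high and the largest subunits of all 3 polymerases were low, *RPA190* (−2.05), *RPO31* (−1.85) and *RPO21* (−1.10). These subunits were singled out after their values were seen.

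Regulators of the cell cycle were mostly at or below the median gene. Of 19 cyclin genes none were high and 7 were low, with a median of −0.50 that was lower still after length adjustment (−0.72). *CLN1* (−1.10), *CLN2* (−1.08) and *CLN3*, the G1 cyclins, were all low, and *PCL5* was lowest (−2.86). The 26 genes of kinesins, dynein and the spindle had none high and 10 low (median −0.54, length-adjusted −0.15), with the dynein heavy chain *DYN1* at −3.64. The 10 septin and bud neck kinase genes had 1 high and 3 low and a median of 0.03 (0.27), with *CDC12* highest (1.12) and the kinase *HSL1* lowest (−1.58). Meiotic genes, whose mRNA was scarce at a median of 11.8 RPKM, had 3 of 31 high and 15 low, with a median of −0.79 (−0.66). *SPR28*, a sporulation septin, was highest (1.91), and *RED1*, a protein of the meiotic chromosome axis, lowest (−5.18).

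Signalling and gene regulation showed wide ranges. Of 33 genes for MAP kinase and Ras pathway proteins 2 were high and 11 low (median −0.26, length-adjusted −0.02). The regulatory subunit of protein kinase A, *BCY1*, was highest (1.90), and the Ras inhibitors *IRA1* (−3.00) and *IRA2* (−3.48), with *TOR1* (−2.18) and *TOR2* (−2.12), were low. Of 71 genes for sequence-specific transcription factors 11 were high and 13 low, near the shares of all genes but below both, and the median of −0.16 turned to 0.23 after length adjustment. *CBF1* (2.04) and the CCAAT-binding subunits *HAP3* (1.79), *HAP2* (1.70) and *HAP5* (1.52) were high, and *GCN4* was lowest. Of 25 decapping and deadenylation genes 8 were high and 3 low (median 0.71, length-adjusted 0.33), from *EDC2* (2.42) to *PAN2* (−2.36).

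Genes for membranes, wall and organelles were mixed. Cell wall protein genes were divided, with 16 of 34 high and 8 low and a standard deviation of 2.59 (median 0.86, length-adjusted 0.69). *CCW14* (2.54), *PIR3* (2.50) and *CWP2* (2.50) were high, whereas *TIR4* (−6.22), *FLO10* (−5.82) and *DAN4* were among the lowest of all genes. The related seripauperins, of which 5 were tested, had 4 low and none high, with a median of −3.35 (−4.73), and share sequence with one another. Of 17 vacuolar ATPase genes 8 were high and 2 low (median 0.82, length-adjusted 0.07). The short subunit gene *VMA9* was highest (2.52), and the long genes of the alternative a subunits, *VPH1* (−1.24) and *STV1* (−1.49), were both low. The 27 genes of ER translocation and vesicle coats had 7 high and 1 low (0.52, 0.52), led by *SSS1* (2.17). The 41 *VPS* sorting genes had 4 high and 10 low (−0.31, −0.13), with the kinase *VPS15* lowest (−2.56). The 35 *ATG* genes had 3 high and 3 low (−0.12, −0.08), and *ATG8*, which coats the autophagosome, lay at 2.25. The 28 *PEX* genes had 4 high and 11 low (−0.53, −0.49), from *PEX11* (1.74) to *PEX9* (−4.28).

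Biosynthetic enzymes lay a little above the median gene. Of 78 genes of amino acid biosynthesis 20 were high and 7 low, with a median of 0.45 (length-adjusted 0.58). *CYS3*, which makes cysteine, was highest (2.15) and *SER3*, in serine synthesis, lowest (−4.32). The low genes included 4 of sulfate assimilation, *MET3* (−2.30), *MET14* (−2.13), *MET5* (−1.87) and *MET10* (−2.69). Of 26 ergosterol genes 4 were high and 1 low, with a median of 0.47 (0.23). *CYB5*, cytochrome b5, was highest (1.52) and the long reductase gene *HMG1* lowest (−1.22). In 36 of the 38 lists the log2 footprint densities of the members spread more than their log2 mRNA densities.

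The landscape was then set against DDKK WT, in which 5228 of the genes were also tested. The strains differ in genotype, medium, temperature and time at once, so the source of a difference cannot be told apart. TE correlated closely across these genes (Pearson 0.955, Spearman 0.964). Of the genes called high in Degron WT, 924 of 1199 (77.1%) were also high in DDKK WT, which is 93.9% of the 984 high genes there. Of the low genes, 925 of 1114 (83.0%) were low in both, 89.0% of the 1039 in DDKK WT. One gene was high in one strain and low in the other. The correlation of TE with length was −0.610 in Degron WT and −0.586 in DDKK WT over these genes.

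A test of the difference itself (edgeR, interaction of assay and strain) called 436 genes (8.34%) higher and 272 genes (5.2%) lower in Degron WT. With each culture as a replicate block the counts were 943 and 522. The counts depended on which cultures were kept. They fell when a Degron culture was left out and rose when a DDKK culture was left out. Each such fit leaves 1 library per assay in that strain, so the spread comes from the other strain alone. It cannot tell which cultures the calls rest on. All 9 genes of the core histone list (median difference 0.66 on the log2 scale) and 5 of 7 galactose genes (1.23) were higher in Degron WT, with none lower. The same held for 33 of 74 mitochondrial ribosomal protein genes (0.37), 14 of 34 respiratory genes (0.37) and 8 of 20 glycolytic genes (0.48). Of the 44 processome genes 14 were lower and none higher (−0.29).

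Single genes picked after the values were seen differed by more, and those given are not the full ranking. *GAL1* was higher in Degron WT by 8.14 ± 0.34 and *GAL7* by 3.93 ± 0.27, on 2 and 2 and on 14 and 19 footprints in DDKK WT. *GAL10* was higher by 2.25 ± 0.25, and *FLO1* (−2.69 ± 0.19) and *FLO9* (−2.44 ± 0.18) were lower. *ICL1*, isocitrate lyase of the glyoxylate cycle, had 487 and 550 mRNA reads and 450 and 410 footprints in Degron WT, against 166 and 106 mRNA reads and 33 and 33 footprints in DDKK WT, a difference in log2 TE of 2.80 ± 0.21 (edgeR adjusted p = 7.12e-07). *IDP2*, a cytosolic isocitrate dehydrogenase gene, had 982 and 1113 mRNA reads and 1739 and 1347 footprints, against 172 and 121 mRNA reads and 66 and 77 footprints (2.63 ± 0.18, adjusted p = 3.01e-07). *DMO1* (2.48 ± 0.28), YHR033W (1.93 ± 0.19) and *BDS1*, a sulfatase gene (1.71 ± 0.26), were also higher.

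In the other direction, *ZPS1* had 115 and 160 mRNA reads and 22 and 30 footprints in Degron WT, against 242 and 131 mRNA reads and 662 and 677 footprints (−3.21 ± 0.28, edgeR adjusted p = 4.20e-06). *FUR4*, the uracil permease gene, had 2685 and 3082 mRNA reads and 171 and 167 footprints, against 914 and 663 mRNA reads and 642 and 656 footprints (−2.77 ± 0.12, adjusted p = 1.90e-09). *ZRT1*, a zinc transporter gene (−2.54 ± 0.19), *SNZ1*, in pyridoxine synthesis (−2.53 ± 0.23), and *PAD1* (−2.004 ± 0.36) were also lower. For *FUR4*, the read counts of mRNA and of footprints thus differed in opposite directions between the strains. These counts are not scaled to library size, and mRNA and footprints were not tested separately. *GCN4* had a log2 TE of −4.74 in Degron WT, which lacks Gcn2, and −4.74 in DDKK WT, where *GCN2* is present, and the test called no difference (edgeR adjusted p = 0.993), with a standard error of 0.15 on the log2 scale.

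**Figure D5:**
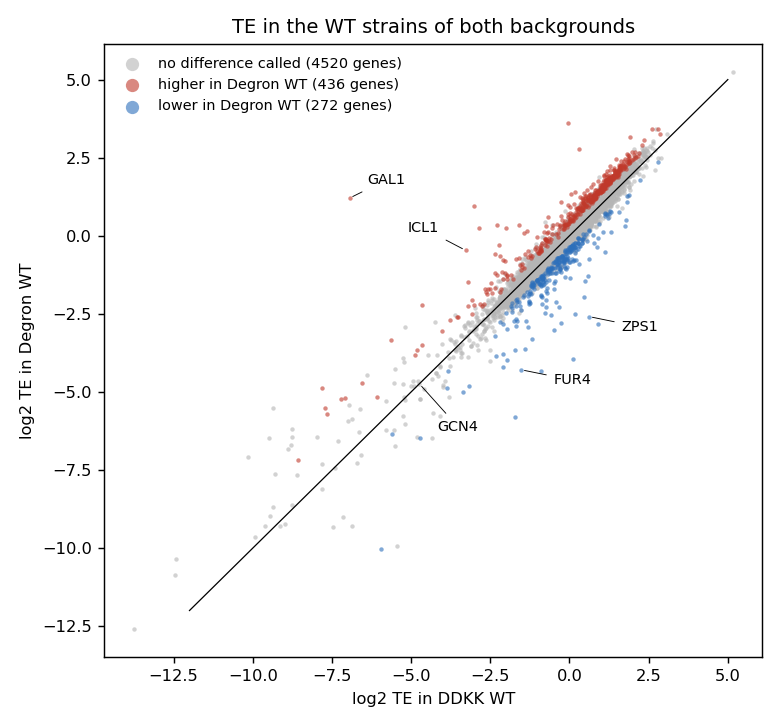
Log2 TE of 5228 genes in Degron WT (vertical) against DDKK WT (horizontal), each relative to the median gene of its strain, with the line of equal TE. Red points are the 436 genes called higher and blue points the 272 called lower in Degron WT by the interaction test. Most genes lie along the line, *ICL1* and *GAL1* lie above it, *ZPS1* and *FUR4* below, and *GCN4* on it.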

How the data were processed

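Reads were those of 16 libraries, of which the 4 of Degron WT, and for one comparison the 4 of DDKK WT, were analysed. The authors deposited read counts per gene and library, without normalization, on coding sequences less the initial 15 and final 5 codons, with the length of each counted region. That length was 60 nt below the annotated coding length for 5196 of 5201 genes without introns. The submitters' processing notes name CASAVA 1.8, Bowtie2 2.2.6.0, TopHat2 2.1.0, DESeq2 and the build sacCer3. Whether counting used strand is not given in the sources used here, so reads of overlapping antisense genes cannot be told apart. Another table, with the authors' log2 TE, log2 changes and adjusted p-values, was not used.

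Counts were fitted in edgeR 4.0.16 (R 4.3.3) with the quasi-likelihood test, assay as the term, TMM scaling and footprints then shifted so that the median gene had a log2 TE of 0. P-values were adjusted over all 5306 genes by the Benjamini-Hochberg method. The SE is the log2 value over the square root of F. TE of 1 culture used a pseudocount of 0.5. Densities used the annotated coding length less 60 nt, or the deposited length for genes not listed. Annotation and sequences came from RefSeq R64. Shared sequence means 28-nt windows found in another gene, with a limit of 10%. Other steps used Python 3.11.15, numpy 2.4.6, scipy 1.17.1, pandas 2.3.3 and matplotlib 3.10.9. The fit was tested on simulated data.

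Named genes were the 10 highest and 10 lowest called genes with at least 100 mRNA reads and 10 footprints in each library, both cultures on one side, annotated, without overlap and within the limit on shared sequence, also the 10 densest in mRNA and in footprints, the ends of each list and a fixed list of 24 genes, of which not all are reported here. The members, the 38 lists and the rules were chosen with earlier results of these data known. The lysate of each culture gave both of its libraries, so the replicate number pairs them, and the deviations of mRNA and footprints of a culture correlated at 0.137 in Degron WT and 0.301 in DDKK WT. Alternatives were DESeq2 1.42.0, other scalings, filters and thresholds, all 8 libraries of the background in one fit, the replicate block and leaving out libraries. P-values rest on 2 cultures per strain, with the spread estimated partly from all genes together. The SE of a single gene can thus be far smaller than the gap between its cultures, as for *DAN4* (−6.46 and −7.42, SE 0.12). No internal standard was added, so TE is relative within a sample. The precision comes from the depth of each library, which the report gives for Degron WT, and the limit for a count of 0 covers counting error only.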

Additional observations from a re-analysis of the deposited data

Results flagged for a closer look

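TE differed between the WT strains of both backgrounds under the same contrast of footprints with mRNA, by edgeR's test of the difference, for 436 genes that were higher and 272 that were lower in Degron WT. Among the genes named for an extreme TE, the log2 TE was higher in Degron WT for *TMA10* by 0.59, *CYC7* by 1.23, *CPP1* by 0.68 and *INH1* by 0.59, all of them above the median gene in both strains. Of the lowest genes, *FRE3* was higher by 1.93, *ADY3* by 2.21, YER186C by 1.97 and *THI74* by 1.87, with standard errors of 0.44 to 0.54. They had 11 to 25 footprints per library in Degron WT, and *HOB2* differed by −0.75. The naming rule asked for at least 10 footprints in each Degron WT library and set no such minimum in DDKK WT. That favours a higher TE in Degron WT among the lowest genes. The highest genes were also picked by their TE in Degron WT, so neither set of differences is independent of the choice. Other single genes were chosen for their size of difference and are not the full ranking. They were *ICL1* (2.80), *IDP2* (2.63), *DMO1* (2.48), YHR033W (1.93) and *BDS1* (1.71). In the other direction they were *ZPS1* (−3.21), *FUR4* (−2.77), *ZRT1* (−2.54), *SNZ1* (−2.53) and *PAD1* (−2.004). The strains differ in genotype, medium, temperature and time, and these cannot be told apart. Groups of 2 cultures are too small for a test of single outlying samples.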

How the results depend on the processing

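The counts of 1207 high and 1147 low genes were within 1.5 times under DESeq2, TMM without centring, both filters on low counts, all 8 libraries of the background, the replicate block, a test against 1.5-fold and each library left out (1203 to 1227 high and 1133 to 1167 low). They moved to 383 and 2283 with library size alone, which put the median gene at −0.77, and to 2383 and 2369 without the minimum fold. All 240 values of the 20 genes with extreme TE stayed on their side and called. The correlation of TE with mRNA level, 0.508 as the mean of both pairings of cultures, was 0.495 with at least 10 reads per library, 0.498 over genes without overlap or shared sequence and 0.504 with both measures from the same libraries, and 0.506 to 0.511 with the mRNA of 1 culture, an alternative added after the data were seen. The correlation with length was −0.633, −0.623 and −0.622 with the same filters and the full coding length, and −0.589 in each culture. Of 113 list medians under alternatives 103 were counted as unchanged, 9 as moved and 1 as reversed. The reversed median was that of the hexose transporters, to −1.40 without genes of shared sequence. That of the septins, counted as unchanged, also changed sign, from 0.03 to −0.0079 without culture 2. The counts of genes that differed between WT strains were 943 and 522 with the replicate block, which changed no other count, and ranged from 31 to 772 and from 44 to 477 when 1 culture was left out. The cause of these moves was not tested. Genes near the minimum of reads, and the lowest TE values among the named genes, which rest on 10 to 43 footprints, are limited by depth.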
